A study of Mus musculus with 8 samples.

Results

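Antioxidant and glutathione genes of mouse blood stem and progenitor cells were compared between diabetic and control animals. They were chosen by name, as a list of 40 symbols that covers the regulators NRF2 and KEAP1, the glutathione, thioredoxin, peroxiredoxin and glutaredoxin systems, superoxide dismutases, catalase, glutathione transferases and ferritin. Of these, 39 had a row among the 13708 genes of the count table. Sod3, the extracellular superoxide dismutase, had none and was not analysed here. The cells were sorted LSK cells, the bone marrow fraction defined as lineage-negative, Sca-1-positive and c-Kit-positive. The 4 control samples were labelled db/m, strain B6.BKS(D)-Leprdb/+, heterozygous at the leptin receptor. The 4 diabetic samples, db/db, were labelled B6.BKS(D)-Leprdb/J and homozygous there, which leaves the mice without the long signalling form of the receptor from birth. Samples of both groups were taken 6 months after diabetes per the labels, which apply this time to the controls too and give neither age nor whether each sample was a single mouse. The p-values therefore measure the spread between these samples. The genotype label set the groups, since all 8 titles read db/m.

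Cells make superoxide and hydrogen peroxide as by-products of respiration and through NADPH oxidases. Superoxide dismutases convert superoxide to hydrogen peroxide, which catalase, glutathione peroxidases and peroxiredoxins reduce to water. The peroxidases are recharged by glutathione and thioredoxin, which are themselves recharged by reductases that spend NADPH. Many of these genes are switched on by the transcription factor NRF2 when oxidants or electrophiles release it from its inhibitor KEAP1. Blood stem cells are known for low levels of reactive oxygen, and their loss of quiescence has been tied to a rise in them.

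Total counts per library ran from 27640853 to 42806327, and levels are given as CPM, read counts scaled to library size with TMM factors. Kit ranged from 563 to 1054 CPM over the 8 libraries, while Ly6a, which encodes Sca-1, ranged from 317 to 568 CPM in db/m and from 91.7 to 178 CPM in db/db. Genes of other cells were present as well. The summed level of 12 plasma cell genes ran from 5399.8 to 20095 CPM (db/m) and from 1677 to 7072 CPM (db/db), that of 13 macrophage genes from 964 to 1735 and from 243 to 5751 CPM, and that of 14 erythroid genes from 932 to 1249.6 and from 1783 to 5343 CPM in the same order. No gene of these 3 lists was at 0 in any library. Megakaryocyte genes separated the groups, with sums of 697 to 1380.4 CPM (db/m) and 1747 to 3027 CPM (db/db), and all 11 tested were higher at an unadjusted p under 0.05. So did T and NK cell genes, with sums of 248 to 438 CPM (db/m) and 179.8 to 230.3 CPM (db/db), of which 8 of 12 were lower at that p and Gzma and Cd8a had a library at 0. The part of these cells in the members whose groups did not overlap was not tested. In bulk samples fewer cells of a type and less RNA per cell cannot be told apart. Among the libraries, db/m replicates 1, 2 and 4 had 23.4% to 26.5% of their uniquely mapped reads between genes, db/m replicate 3 had 12.3% and the db/db libraries 5.15% to 11.9%. The erythroid sum was highest in db/db replicate 3, and the macrophage sum lowest in it.

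NRF2 binds DNA at the antioxidant response element, whose core reads TGACNNNGC. In RefSeq promoter windows of GRCm38.p6 (mm10), 35 of the 39 genes were found, with 47 start sites. The core lay in the 250 bases before the start of 7 of these genes, on either strand, that is in 14.9% of the 47 promoters, while 10.2% of 32851 promoters of the same length held it. With the 50 bases after the start included, the shares were 17% of the members' promoters, 12.4% of all and 14.4% of those of genes in the count table. Srxn1 held the core after its start, at position 29, and is not shown. The match of Txnrd1 lies before a start inside the gene, which begins at 82833951. The stretches around the core are shown for the 7 members that held it before a start, with the core in capitals. Each is written on the strand of its gene, and where the capitals start with GC the core is on the opposite strand.
Nfe2l2, chr2:75704869-75704913, minus strand: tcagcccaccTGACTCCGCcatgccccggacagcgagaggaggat
Gclm, chr3:122245397-122245457, plus strand: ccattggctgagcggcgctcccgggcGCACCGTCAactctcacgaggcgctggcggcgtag
Txnrd1, chr10:82859088-82859148, plus strand: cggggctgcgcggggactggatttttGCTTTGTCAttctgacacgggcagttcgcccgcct
Prdx1, chr4:116685440-116685500, plus strand: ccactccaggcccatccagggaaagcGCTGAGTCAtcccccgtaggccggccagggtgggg
Sod1, chr16:90220680-90220740, plus strand: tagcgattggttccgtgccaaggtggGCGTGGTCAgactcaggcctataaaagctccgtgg
Gstm5, chr3:107895786-107895846, plus strand: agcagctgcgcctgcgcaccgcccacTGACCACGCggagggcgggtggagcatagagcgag
Mgst1, chr6:138140445-138140505, plus strand: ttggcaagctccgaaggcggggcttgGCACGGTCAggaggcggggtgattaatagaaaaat
These 7 genes did not share a direction in db/db. Their log2 fold changes were 0.07, -0.10, 0.11, -0.20, 0.09, 0.80 and 0.84 in the order printed, with a median of 0.09. The median was 0.01 over the 28 others with a promoter in the table, Srxn1 among them. A match is a run of letters and not a bound site, and Nqo1, a standard NRF2 target, held none in this window.

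Setting db/db beside db/m asks whether the antioxidant genes of these cells differ in mice with long-standing diabetes and no long leptin receptor. Diabetes and the loss of the receptor came together in these mice and cannot be told apart. As a group the antioxidant genes lay close to their control levels. Of the 39 members 24 had a positive and 15 a negative log2 fold change, with a median of 0.06, where the median of all genes was 0.01. Catalase and the mitochondrial thioredoxin reductase Txnrd2 were higher in every db/db library than in any db/m library, as were Nqo1, Gstm5 and Gpx7. The transferase Mgst2 and the glutaredoxin Glrx3 were lower in every db/db library. With edgeR's quasi-likelihood test and a threshold of 0.05 on the adjusted p, 0 members were called, as were 0.0365% of all genes. The lowest adjusted p among the members was 0.116, for Txnrd2 and Cat.

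At an unadjusted p under 0.05 there were 9 members, 5 higher and 4 lower, which is 23.1% of them, where 15.3% of all genes stood out in this way (7.78% higher and 7.54% lower). In 7 members the db/db and db/m libraries formed separate ranges, 17.9% of them, with 5 higher and 2 lower. Over all genes the share was 9.03%, with 4.5% higher and 4.53% lower. Without db/db replicate 3 the groups did not overlap in 13 members, where 17.9% of all genes did not, so both shares moved. DESeq2 called 5 members, Nqo1, Txnrd2, Cat, Prdx4 and Mgst2, in a fit that called 5.6% of all genes. The authors' deposited table, which matches edgeR's likelihood ratio test, lists Txnrd2 (false discovery rate 0.0412) and Mgst2 (0.0424) below 0.05, in a table with 4.28% of genes below it. Limma-voom called 0 members and 0 of the 13708 genes. When db/m replicate 3 alone stood for the controls, 4 members had an unadjusted p under 0.05, where 15.3% of all genes did, and none of them was among the 9.

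**Figure D1:**
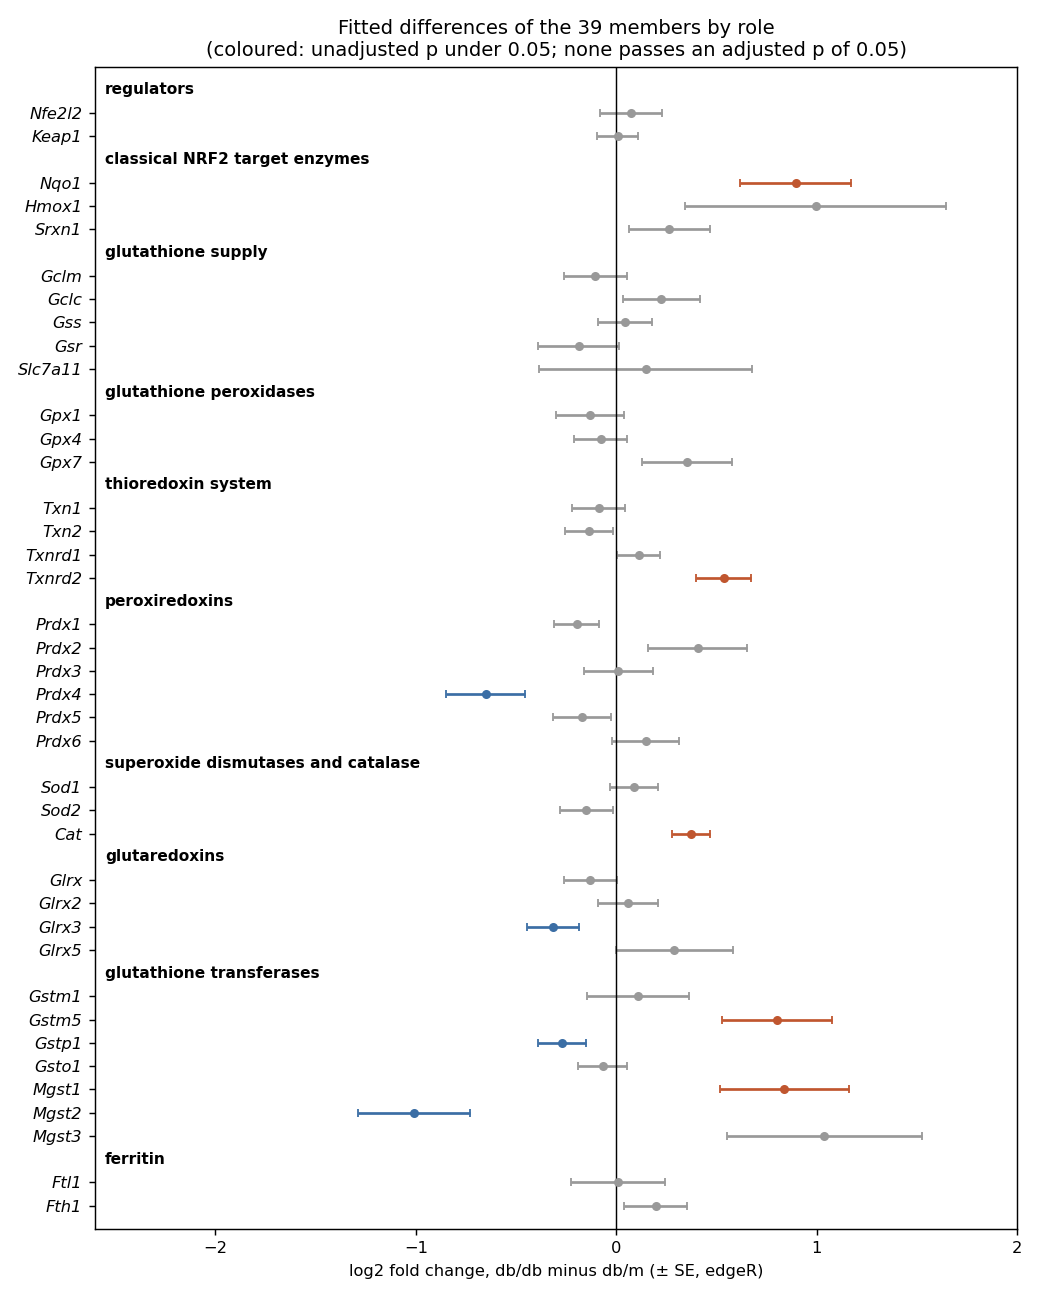
Fitted log2 fold change of db/db minus db/m for each of the 39 members, with the SE as bars, grouped by role. Coloured points have an unadjusted p under 0.05 (5 higher in orange, 4 lower in blue), and the widest bar is that of Hmox1.

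**Figure D2:**
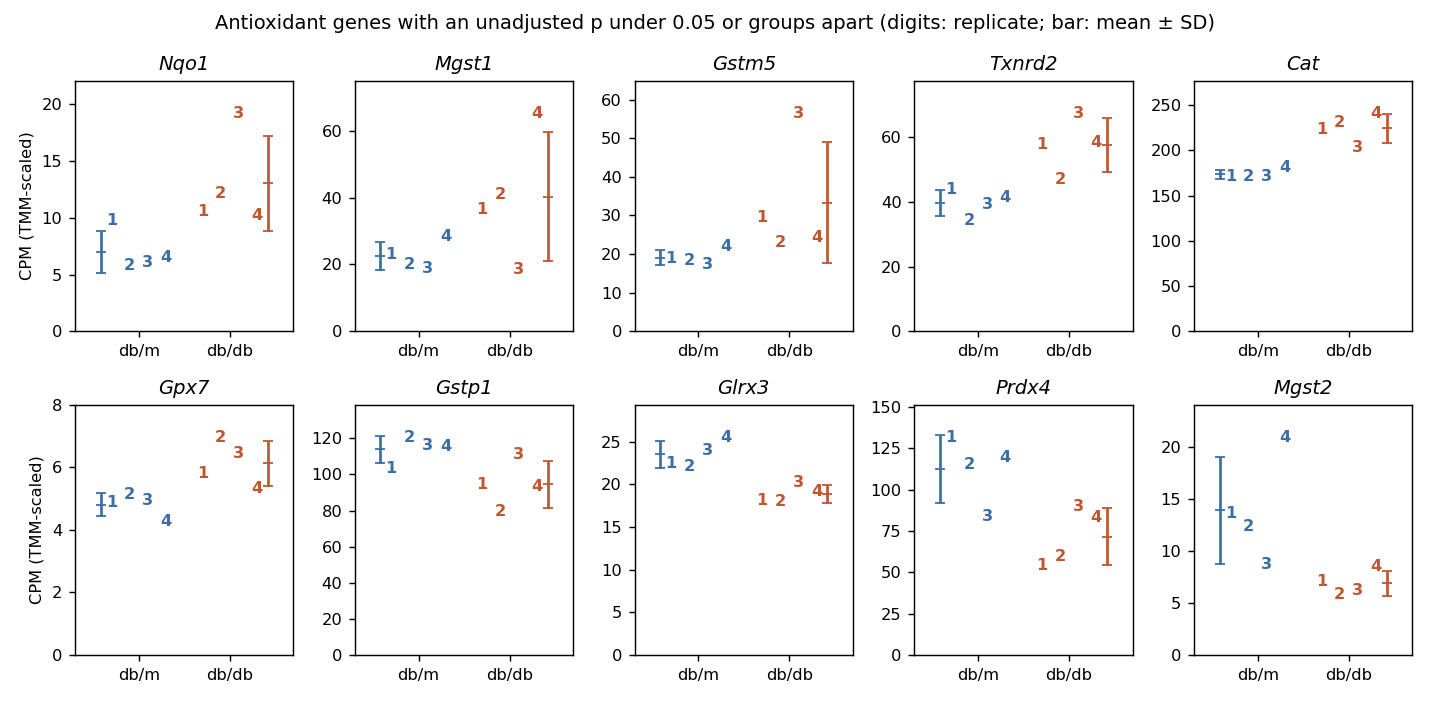
CPM in each library for the 10 members with an unadjusted p under 0.05 or with groups that do not overlap, db/m in blue and db/db in orange, each digit being the replicate number and each bar the mean ± SD of 4 libraries. Cat and Glrx3 have tight groups, while Nqo1 and Gstm5 are set apart most by db/db replicate 3 and Mgst1 by db/db replicate 4.

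Both regulators lay close to their control levels. Nfe2l2, which encodes NRF2, was at 94.99, 95.9, 118 and 83.5 CPM in db/m replicates 1 to 4 and 129.8, 101, 97.2 and 84.6 CPM in db/db replicates 1 to 4. The groups overlapped, and the highest and the second lowest value were both from db/db. Its log2 fold change was 0.07 ± 0.15 (SE), adjusted p = 0.867. Keap1, the adaptor that hands NRF2 to a ubiquitin ligase, was at 138, 138, 152 and 128 CPM in db/m replicates 1 to 4 and 158, 136, 135 and 129.7 CPM in db/db replicates 1 to 4. Its highest library, db/db replicate 1, was 1.23 times its lowest, the narrowest range of any member. This gave a log2 fold change of 0.01 ± 0.10 (SE), adjusted p = 0.989. Of 15 other genes of the NRF2 network that were tested, among them Nfe2l1, Bach1, Mafg, Cul3 and Sqstm1, none had an unadjusted p under 0.05, and the median log2 fold change was -0.01.

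Nqo1, Hmox1, Srxn1, Txnrd1, Gclc, Gclm and Slc7a11 are standard targets of NRF2, and of these Nqo1 had an unadjusted p under 0.05. Nqo1, a quinone reductase on chromosome 8 from 107388225 to 107403205 (mm10), was at 9.76, 5.75, 6.08 and 6.47 CPM in db/m replicates 1 to 4 and 10.5, 12.2, 19.2 and 10.2 CPM in db/db replicates 1 to 4. All 4 db/db libraries lay above all 4 db/m libraries, but db/db replicate 4 and db/m replicate 1 nearly met, and db/db replicate 3 was highest by a wide margin. The fitted log2 fold change was 0.89 ± 0.28 (SE), adjusted p = 0.167, and it was 0.65 without db/db replicate 3. Srxn1, which repairs overoxidised peroxiredoxins, was at 36.4, 24.6, 18.7 and 23.4 CPM in db/m replicates 1 to 4 and 35.6, 29.9, 27.2 and 31 CPM in db/db replicates 1 to 4. The highest value was from db/m replicate 1, so the groups overlapped, with a log2 fold change of 0.26 ± 0.20 (SE), adjusted p = 0.579. Txnrd1, the cytosolic thioredoxin reductase, was at 287, 299.7, 294 and 235 CPM in db/m replicates 1 to 4 and 290.1, 313, 306 and 296 CPM in db/db replicates 1 to 4. Its db/db libraries lay within the upper part of the db/m range or just above it, with a log2 fold change of 0.11 ± 0.11 (SE), adjusted p = 0.677.

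Hmox1, which breaks down heme and is induced both by NRF2 and by heme itself, spread more than any other member. It was at 174, 196, 101 and 77.7 CPM in db/m replicates 1 to 4 and 289, 243, 28.1 and 534 CPM in db/db replicates 1 to 4. The highest and the lowest library were both db/db, 19.0-fold apart, and the log2 fold change of 0.99 ± 0.65 (SE), adjusted p = 0.507, had the largest SE of the list. The macrophage genes followed a similar order of libraries. In the db/db group their summed level was 5751 CPM for replicate 4, 3075 for replicate 1 and 2487 for replicate 2, the 3 highest libraries for Hmox1 too, and 243 CPM in db/db replicate 3, the lowest for both. Of its most abundant genes, Vcam1, an adhesion molecule, went from 40.5 CPM in db/db replicate 3 to 1175 in db/db replicate 4, and Slc40a1, the iron exporter ferroportin, from 52.1 to 1117. All 13 macrophage genes had positive log2 fold changes and none had an unadjusted p under 0.05. Their part in the level of Hmox1 was not tested. Without db/db replicate 3 the log2 fold change of Hmox1 was 1.37, and without db/db replicate 4 it was 0.43.

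**Figure D3:**
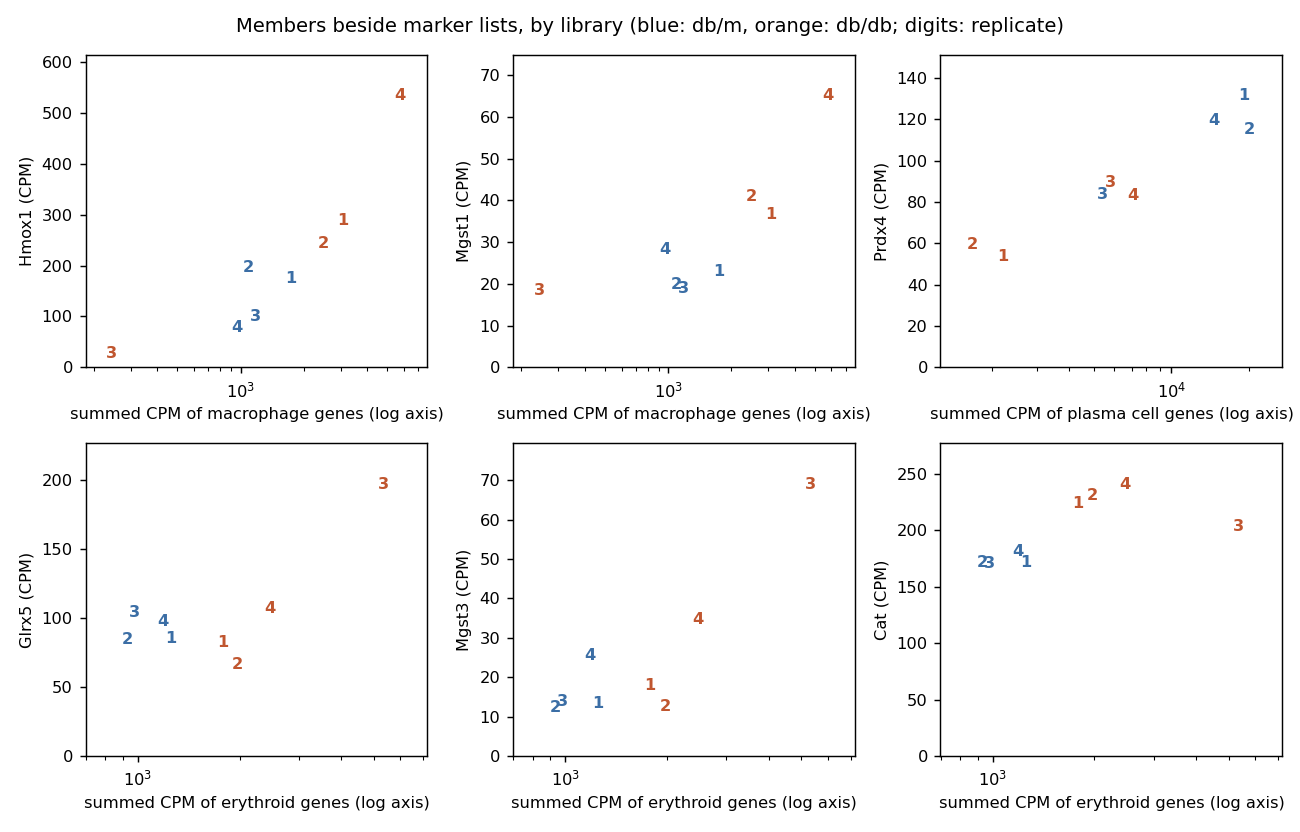
CPM of 6 members (vertical axes, from 0) against the summed CPM of a marker list (horizontal axes, logarithmic) in each library, db/m in blue and db/db in orange, digits giving the replicate. Hmox1 is lowest in db/db replicate 3 and highest in db/db replicate 4, as the macrophage sum is, Prdx4 is highest in the 3 db/m libraries with the most plasma cell RNA, and Glrx5 and Mgst3 are highest in db/db replicate 3, which has the highest erythroid sum. Glrx5 is lowest in db/db replicate 2, although the erythroid sum of that library, 1976 CPM, is above those of all db/m libraries.

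Genes that make glutathione, the main small thiol of the cell, were near control levels. Gclc, the catalytic subunit of the rate-limiting ligase, was at 100.1, 96.3, 117 and 65.4 CPM in db/m replicates 1 to 4 and 102, 96.9, 145 and 98.1 CPM in db/db replicates 1 to 4. The lowest library was db/m replicate 4 and the highest db/db replicate 3, and the others lay together, with a log2 fold change of 0.22 ± 0.19 (SE), adjusted p = 0.628. Gclm, its regulatory subunit, was at 95.8, 112, 96.7 and 123 CPM in db/m replicates 1 to 4 and 94.3, 83.9, 131 and 88.6 CPM in db/db replicates 1 to 4. Here db/db replicates 1, 2 and 4 lay below all db/m libraries and db/db replicate 3 above them, with a log2 fold change of -0.10 ± 0.16 (SE), adjusted p = 0.801. Gss, glutathione synthetase, had 49.5 ± 2.56 CPM (db/m) against 51.05 ± 8.39 CPM (db/db) (SD, n = 4 each), and Gsr, the reductase that regenerates glutathione, had 159.7 ± 44.6 CPM (db/m) against 140.2 ± 23.1 CPM (db/db). Their groups overlapped, with log2 fold changes of 0.04 and -0.19.

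Slc7a11, the cystine importer that feeds glutathione synthesis, was close to undetected, at 2.34, 1.91, 1.06 and 0.558 CPM in db/m replicates 1 to 4 and 2.17, 2.25, 1.02 and 1.04 CPM in db/db replicates 1 to 4. These levels rest on 18 to 82 reads per library, and the log2 fold change was 0.15 ± 0.53 (SE), adjusted p = 0.930. It was the lowest of all members, and its sign turned without db/m replicate 4 (-0.12). Slc3a2, the heavy chain that pairs with Slc7a11 and with other amino acid carriers, had 1076 ± 391 CPM (db/m) against 488 ± 155 CPM (db/db) and a log2 fold change of -1.14 ± 0.30 (SE), adjusted p = 0.116. Chac1, an enzyme that degrades glutathione and is induced by ATF4, had 21.6 ± 8.89 CPM (db/m) against 6.32 ± 4.54 CPM (db/db) and a log2 fold change of -1.78 ± 0.50 (SE), adjusted p = 0.134. Of 28 other glutathione genes 15 had a positive and 13 a negative log2 fold change, with a median of 0.04. At an unadjusted p under 0.05, 3 were higher and 2 lower, 17.9% of them, where 15.3% of all genes had such a p. Chac2, a slower enzyme of the same kind, pointed the other way with 3.57 ± 1.23 CPM (db/m) against 6.41 ± 1.28 CPM (db/db), its groups did not overlap, and its log2 fold change was 0.84 ± 0.32 (SE), adjusted p = 0.252. The plasma cell sums, given with Prdx4, were also higher in 3 db/m libraries, and their part in the levels of Slc3a2 and Chac1 was not tested. Abcc1, a pump that exports glutathione and its conjugates, had 135 ± 21.02 CPM (db/m) against 172 ± 10.3 CPM (db/db), again with groups apart and a log2 fold change of 0.35 ± 0.13 (SE), adjusted p = 0.234.

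Among the enzymes that remove peroxide and superoxide, catalase stood apart. Cat, on chromosome 2 from 103453904 to 103485153, was at 171, 171, 171 and 181 CPM in db/m replicates 1 to 4 and 224, 230.4, 203 and 241 CPM in db/db replicates 1 to 4. The db/m libraries lay close together and every db/db library lay above them. The mean was 1.29 times higher in db/db, with a log2 fold change of 0.37 ± 0.10 (SE), adjusted p = 0.116. The log2 fold change lay between 0.32 and 0.42 over 18 other fits, all of them to these 8 libraries or a part of them. One of these, the fit without a filter, could not differ from the main fit, since the filter removed 0 genes. With db/m replicate 3 as the lone control it was 0.40. In the 3 db/db libraries with more macrophage RNA Cat was 224 to 241 CPM, and in db/db replicate 3, with little macrophage and the most erythroid RNA, it was 203 CPM. Erythroid and megakaryocyte sums separated the groups as Cat did, being higher in every db/db library. The erythroid sums were 932 to 1249.6 CPM (db/m) and 1783 to 5343 CPM (db/db). For megakaryocyte genes they were 697 to 1380.4 CPM (db/m) and 1747 to 3027 CPM (db/db). The part of these cells in the level of Cat was not tested.

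The superoxide dismutases did not follow it. Sod1, the copper and zinc enzyme of the cytosol, had 49.1 ± 5.99 CPM (db/m) against 52.2 ± 3.00 CPM (db/db), and Sod2, the manganese enzyme of mitochondria, 101 ± 6.94 CPM (db/m) against 91.3 ± 16.4 CPM (db/db). Their log2 fold changes were 0.09 and -0.15, with adjusted p of 0.774 and 0.641. Gpx1, the main cytosolic glutathione peroxidase and a selenoprotein, had 1389 ± 256 CPM (db/m) against 1267 ± 219.7 CPM (db/db). Gpx4, the selenoprotein that reduces lipid peroxides and guards against ferroptosis, had 229 ± 25.1 CPM (db/m) against 217 ± 30.3 CPM (db/db). In both the groups overlapped, with log2 fold changes of -0.13 and -0.08. Gpx7, a peroxidase of the endoplasmic reticulum that lacks selenocysteine, was rare, at 4.87, 5.14, 4.93 and 4.27 CPM in db/m replicates 1 to 4 and 5.81, 6.96, 6.45 and 5.31 CPM in db/db replicates 1 to 4. Its groups did not overlap, yet the gap between db/m replicate 2 and db/db replicate 4 was small, and the log2 fold change was 0.35 ± 0.22 (SE), adjusted p = 0.491.

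Within the thioredoxin system, the mitochondrial reductase was the one member whose groups did not overlap. Txnrd2, a selenoprotein on chromosome 16 from 18426417 to 18479073, was at 43.8, 34.4, 39.2 and 41.5 CPM in db/m replicates 1 to 4 and 57.8, 46.9, 67.3 and 58.2 CPM in db/db replicates 1 to 4. Every db/db library lay above every db/m library, the closest being db/db replicate 2 and db/m replicate 1. The log2 fold change was 0.54 ± 0.14 (SE), adjusted p = 0.116, with 0.45 to 0.62 over 18 other fits. There were 7 members that act in mitochondria, Txnrd2 included, 4 with a positive and 3 with a negative log2 fold change and a median of 0.01. Txn2, the thioredoxin that Txnrd2 reduces, had 175 ± 12.1 CPM (db/m) against 159 ± 22.01 CPM (db/db), and Prdx3, the peroxiredoxin that Txn2 reduces, had 119.8 ± 15.7 CPM (db/m) against 121 ± 28.7 CPM (db/db). Log2 fold changes were -0.13 for Txn2, 0.01 for Prdx3, -0.15 for Sod2, 0.06 for Glrx2, 0.29 for Glrx5 and -0.17 for Prdx5, which is found in mitochondria and elsewhere. Txn1, the cytosolic thioredoxin, had 209 ± 22.1 CPM (db/m) against 196 ± 29.1 CPM (db/db), with a log2 fold change of -0.09.

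The promoters of Cat and Txnrd2 are shown as the 100 bases before the start, since these 2 members had the lowest adjusted p. Capitals mark the GC box GGGCGG and the CCAAT box, on either strand.
Cat, chr2:103485154-103485253, minus strand: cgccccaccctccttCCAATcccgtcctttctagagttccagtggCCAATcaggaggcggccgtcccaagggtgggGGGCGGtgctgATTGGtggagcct
Txnrd2, chr16:18426317-18426416, plus strand: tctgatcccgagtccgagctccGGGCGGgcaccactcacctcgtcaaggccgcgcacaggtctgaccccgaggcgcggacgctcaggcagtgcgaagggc
The Cat promoter held 3 CCAAT boxes and 1 GC box, and that of Txnrd2 held 1 GC box and 0 CCAAT boxes. Over 32851 promoters, 24.7% held a GC box and 18.9% a CCAAT box in this window. Neither held TGACNNNGC in the 250 bases before the start.

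Of 20 related thioredoxin and repair genes outside the member list, 3 had higher levels in db/db at an unadjusted p under 0.05 and none had lower ones. That is 15% of the list, where 15.3% of all genes had such a p. Msrb3, a methionine sulfoxide reductase, had 26.1 ± 6.26 CPM (db/m) against 57.4 ± 8.07 CPM (db/db), with a log2 fold change of 1.14 ± 0.19 (SE), adjusted p = 0.0797. Txnip, which binds and inhibits thioredoxin, had 362 ± 39.03 CPM (db/m) against 652 ± 146 CPM (db/db) and 0.85 ± 0.17 (SE), adjusted p = 0.0808. Txnrd3, the testis-enriched reductase that also reduces glutathione disulfide, had 33.9 ± 6.64 CPM (db/m) against 46.8 ± 4.26 CPM (db/db) and 0.47 ± 0.16 (SE), adjusted p = 0.208. In all 3 the groups did not overlap. The median log2 fold change of the 20 genes was -0.09, with 8 positive and 12 negative.

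The peroxiredoxins differed among themselves. Prdx4, the member of the endoplasmic reticulum, which passes oxidising power to protein disulfide isomerases, lies on chromosome X from 155323920 to 155338454 and was at 132, 115, 83.7 and 119.7 CPM in db/m replicates 1 to 4 and 53.8, 59.7, 89.7 and 83.1 CPM in db/db replicates 1 to 4. The db/m libraries were highest except for replicate 3, which lay below db/db replicate 3 and just above db/db replicate 4. Its log2 fold change was -0.65 ± 0.20 (SE), adjusted p = 0.157. The plasma cell genes had a similar order of libraries. Their summed level was 19157, 20095 and 14605 CPM in db/m replicates 1, 2 and 4, 5399.8 in db/m replicate 3, 5812 and 7072 in db/db replicates 3 and 4, and 2192 and 1677 in db/db replicates 1 and 2. All 12 plasma cell genes had negative log2 fold changes with an unadjusted p under 0.05, and their part in the level of Prdx4 was not tested. Against db/m replicate 3 alone the log2 fold change of Prdx4 was -0.22. With db/m replicate 3 and db/db replicate 3 both left out it was -0.90, with an adjusted p of 0.0422.

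Prdx2, the abundant peroxiredoxin of red cells, was at 276, 277, 306 and 311 CPM in db/m replicates 1 to 4 and 299, 264, 635 and 351 CPM in db/db replicates 1 to 4. A single library, db/db replicate 3, stood far above the rest, and the log2 fold change of 0.41 ± 0.25 (SE), adjusted p = 0.474, became 0.06 without it. Prdx1, the cytosolic form, had 465 ± 37.05 CPM (db/m) against 406 ± 37.1 CPM (db/db), and Prdx6, which uses glutathione in place of thioredoxin, had 643 ± 149.7 CPM (db/m) against 711 ± 33.6 CPM (db/db). Prdx5 had 88.2 ± 18.5 CPM (db/m) against 78.3 ± 1.44 CPM (db/db). The log2 fold changes of these 3 were -0.20, 0.15 and -0.17, and their groups overlapped.

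Among the glutaredoxins, Glrx3, which carries iron-sulfur clusters in the cytosol, was lower in every db/db library. It was at 22.4, 22.1, 23.95 and 25.5 CPM in db/m replicates 1 to 4 and 18.1, 18, 20.2 and 19.2 CPM in db/db replicates 1 to 4. The gap between the groups was about as wide as the spread within db/db, and the log2 fold change was -0.32 ± 0.13 (SE), adjusted p = 0.288. Glrx5, the mitochondrial glutaredoxin needed for iron-sulfur clusters and for heme synthesis in red cell precursors, was at 85.2, 84.4, 104 and 97.4 CPM in db/m replicates 1 to 4 and 82.6, 66.1, 197 and 107 CPM in db/db replicates 1 to 4. Only db/db replicate 3 stood out, and the log2 fold change of 0.29 ± 0.29 (SE), adjusted p = 0.687, turned to -0.12 without it. Glrx had 56.3 ± 9.92 CPM (db/m) against 51.5 ± 2.27 CPM (db/db) and Glrx2 25.97 ± 2.97 CPM (db/m) against 27.03 ± 3.41 CPM (db/db), with log2 fold changes of -0.13 and 0.06.

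The glutathione transferases, which couple glutathione to electrophiles, held the largest differences in both directions. Mgst2, a membrane enzyme that can also make leukotriene C4, lies on chromosome 3 from 51661193 to 51682675 and was at 13.6, 12.4, 8.75 and 20.97 CPM in db/m replicates 1 to 4 and 7.08, 5.81, 6.24 and 8.54 CPM in db/db replicates 1 to 4. Every db/db library was below every db/m library, with db/m replicate 3 close to db/db replicate 4 and db/m replicate 4 far above the rest. This gave a log2 fold change of -1.01 ± 0.28 (SE), adjusted p = 0.131, and it was -0.34 against db/m replicate 3 alone. Db/m replicate 4 also had the highest summed level of 12 granulocyte-monocyte genes, 13900.1 CPM. The other db/m libraries had 3376 to 8051 CPM and the db/db libraries 2322 to 5625 CPM. The orders differed elsewhere, with 3376 CPM in db/m replicate 1, and 5349 and 5625 CPM in db/db replicates 1 and 3. Of the 12 genes 10 had a negative log2 fold change, with a median of -0.88, and 4 were lower at an unadjusted p under 0.05. The summed level of T and NK cell genes was also highest in db/m replicate 4, at 438 CPM. The part of these cells in the level of Mgst2 was not tested.

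The related membrane enzymes Mgst1 and Mgst3 had higher means in db/db, each through different libraries. Mgst1 was at 23.03, 19.9, 18.8 and 28.3 CPM in db/m replicates 1 to 4 and 36.5, 40.95, 18.4 and 65.1 CPM in db/db replicates 1 to 4. It was highest in db/db replicate 4 and lowest in db/db replicate 3, the order of the macrophage sum at its ends, and the log2 fold change was 0.84 ± 0.32 (SE), adjusted p = 0.256. The part of macrophages in the level of Mgst1 was not tested. Without db/db replicate 4 it was 0.49. Mgst3 was at 13.5, 12.4, 13.8 and 25.6 CPM in db/m replicates 1 to 4 and 17.8, 12.5, 69 and 34.7 CPM in db/db replicates 1 to 4. Here db/db replicate 3 was highest and db/db replicate 4 next, as in the erythroid sum (5343 and 2467 CPM, the others 932 to 1976). The other libraries did not keep this order. The sum of 1976 CPM was that of db/db replicate 2, the lowest library for Prdx2 and Glrx5, where Mgst3 was at 12.5 CPM. In db/m replicate 4, where Mgst3 was at 25.6 CPM, the sum was 1183 CPM. The log2 fold change of 1.04 ± 0.49 (SE), adjusted p = 0.345, was 0.41 without db/db replicate 3. All 14 erythroid genes had positive log2 fold changes, 13 of them with an unadjusted p under 0.05, and their part in the levels of Mgst3, Prdx2, Glrx5, Gstm5 and Nqo1 was not tested.

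Among the cytosolic transferases, Gstm5 was at 18.8, 18.4, 17.2 and 21.9 CPM in db/m replicates 1 to 4 and 29.5, 22.9, 56.4 and 24.2 CPM in db/db replicates 1 to 4. Its groups did not overlap, with db/db replicate 3 again highest, and the log2 fold change of 0.80 ± 0.28 (SE), adjusted p = 0.209, was 0.42 without that library. The antisense transcript 4933431E20Rik shares 145 bases, 15.9% of the exons of Gstm5, and had a log2 fold change of 1.08. Gstm1, from the same gene cluster on chromosome 3, had 282 ± 120.2 CPM (db/m) against 305 ± 42.7 CPM (db/db), the widest db/m spread of the cytosolic transferases, and a log2 fold change of 0.11. Gstp1 was at 103, 121, 116 and 116 CPM in db/m replicates 1 to 4 and 94.5, 79.4, 111 and 93.2 CPM in db/db replicates 1 to 4. Only db/db replicate 3 reached the db/m range, with a log2 fold change of -0.27 ± 0.12 (SE), adjusted p = 0.321. Gsto1, which reduces dehydroascorbate, had 141 ± 12.7 CPM (db/m) against 135 ± 17.7 CPM (db/db) and a log2 fold change of -0.07.

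Ferritin stores iron and so keeps it from producing hydroxyl radicals. Ftl1, the light chain, was at 3018, 3287, 1552 and 2742 CPM in db/m replicates 1 to 4 and 2427, 2354, 2388 and 3487 CPM in db/db replicates 1 to 4. It was the most abundant member, its lowest library was db/m replicate 3 and its highest db/db replicate 4, and the log2 fold change was 0.01 ± 0.23 (SE), adjusted p = 0.992. Against db/m replicate 3 alone it was 0.78. Fth1, the heavy chain with the ferroxidase site, had 1455 ± 211 CPM (db/m) against 1667 ± 262 CPM (db/db), and again db/m replicate 3 was lowest, with a log2 fold change of 0.20 ± 0.16 (SE), adjusted p = 0.604. Of 16 other genes of iron handling, 1 had an unadjusted p under 0.05 (6.25%, where 15.3% of all genes did). It was Tfr2, the transferrin receptor that senses iron, with 136 ± 15.9 CPM (db/m) against 169 ± 20.9 CPM (db/db) and a log2 fold change of 0.31 ± 0.13 (SE), adjusted p = 0.288.

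Per length of transcript the members spanned a wide range. As mean CPM per kilobase of exons over 8 libraries, Ftl1 was at 2739, Gpx1 at 1268 and Fth1 at 1033, followed by Prdx2 at 361, Prdx1 at 307 and Prdx6 at 272. Catalase stood at 77.99, below Gpx4 at 145, and Sod1 at 78.2 was close to it. At the low end were Srxn1 at 10.1, Glrx2 at 7.10, Nqo1 at 6.46, Gpx7 at 4.51 and Slc7a11 at 0.167 CPM per kilobase. Of the 7 members whose groups did not overlap, Cat was the highest on this scale, while Txnrd2 was at 25.5, Gstm5 at 28.7, Mgst2 at 17.7 and Glrx3 at 12.8. The length is that of all annotated exons, so a gene with rarely used exons reads low here.

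The neighbouring pathways were described by lists, and no gene of them passed the adjusted threshold. Of 16 enzymes that supply NADPH, the fuel of both reductases, 13 had a negative log2 fold change, with a median of -0.24, where 6665 of the 13708 genes had a negative one. At an unadjusted p under 0.05 there were 5 lower and 1 higher, where 7.54% and 7.78% of all genes were. Pgls, of the pentose phosphate pathway, had 146 ± 26.3 CPM (db/m) against 103 ± 19.4 CPM (db/db) and a log2 fold change of -0.50 ± 0.17 (SE), adjusted p = 0.196. Nnt, the transhydrogenase of mitochondria, had 86.1 ± 10.1 CPM (db/m) against 66.7 ± 4.08 CPM (db/db) with groups apart and -0.37 ± 0.11 (SE), adjusted p = 0.166. Tigar, which shifts glucose into the pentose pathway, had 6.86 ± 2.87 CPM (db/m) against 3.45 ± 1.63 CPM (db/db) and -0.99 ± 0.40 (SE), adjusted p = 0.277. Nadk2, the mitochondrial kinase that makes NADP, had 97.4 ± 8.75 CPM (db/m) against 126 ± 12 CPM (db/db), higher in every db/db library, and 0.37 ± 0.11 (SE), adjusted p = 0.154.

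Subunits of NADPH oxidase, a source of superoxide in myeloid cells, had a median of -0.31 over 11 genes, 5 of them lower at an unadjusted p under 0.05 and none higher. That is 45.5% of the list, where 7.54% of all genes were lower and 7.78% higher at that p. Ncf4, the p40 subunit, had 68.8 ± 8.14 CPM (db/m) against 40.3 ± 6.02 CPM (db/db) and Rac2, the GTPase of the complex, 638 ± 65.1 CPM (db/m) against 513 ± 41.7 CPM (db/db), both without overlap of the groups. Log2 fold changes were -0.77 ± 0.14 (SE), adjusted p = 0.0797 for Ncf4 and -0.31 ± 0.12 (SE), adjusted p = 0.246 for Rac2. Cybb, the catalytic subunit, had 160.0 ± 51.7 CPM (db/m) against 90.1 ± 47.7 CPM (db/db) and Nox1, a related catalytic subunit best known from the colon, 7.67 ± 6.60 CPM (db/m) against 1.85 ± 1.40 CPM (db/db), both with overlap. Ncf4, Rac2 and Cybb are expressed in granulocytes and monocytes. The granulocyte-monocyte markers leaned the same way, with counts and sums given with Mgst2. Cybb was at 208, 198, 101 and 132 CPM in db/m replicates 1 to 4. The marker sums there were 3376, 8051, 8002 and 13900 CPM, lowest where Cybb was highest. The B cell sums there were 384, 374, 192 and 336 CPM. In the db/db group they were highest in replicate 4 (289 CPM), as Cybb was. The part of either list in the levels of these genes was not tested.

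A list made for other NRF2 target enzymes had a median of 0.25 over 15 genes. At an unadjusted p under 0.05, 4 were higher and 1 lower, 33.3% of them, where 15.3% of all genes had such a p. Por, the reductase that feeds electrons to cytochromes P450 and to heme oxygenase, had 222 ± 24.1 CPM (db/m) against 294 ± 32.9 CPM (db/db), groups apart, and a log2 fold change of 0.41 ± 0.12 (SE), adjusted p = 0.161. Blvrb, a biliverdin reductase that is abundant in red cells, had 36.3 ± 6.02 CPM (db/m) against 100.2 ± 69.6 CPM (db/db) and 1.47 ± 0.42 (SE), adjusted p = 0.138. Aldh3a1 was near the limit of detection at 0.369 ± 0.412 CPM (db/m) against 1.63 ± 0.846 CPM (db/db). The lower gene was Txndc5, which is a disulfide isomerase rather than a detoxifying enzyme and is also in the plasma cell list. It had 1474 ± 428 CPM (db/m) against 468 ± 194 CPM (db/db) and -1.65 ± 0.31 (SE), adjusted p = 0.0797. Of 18 genes for selenium incorporation and other selenoproteins 9 were positive and 9 negative. At an unadjusted p under 0.05, 2 were lower (11.1%, where 15.3% of all genes had such a p in either direction). They were Vimp (now Selenos), which helps export misfolded proteins from the endoplasmic reticulum, with 153 ± 42.6 CPM (db/m) against 78.6 ± 23.4 CPM (db/db), and 2700094K13Rik (now Selenoh), a nucleolar selenoprotein, with 76.1 ± 15.2 CPM (db/m) against 58.9 ± 9.05 CPM (db/db). The 4 selenoproteins among the members had log2 fold changes of -0.13, -0.08, 0.11 and 0.54.

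**Figure D4:**
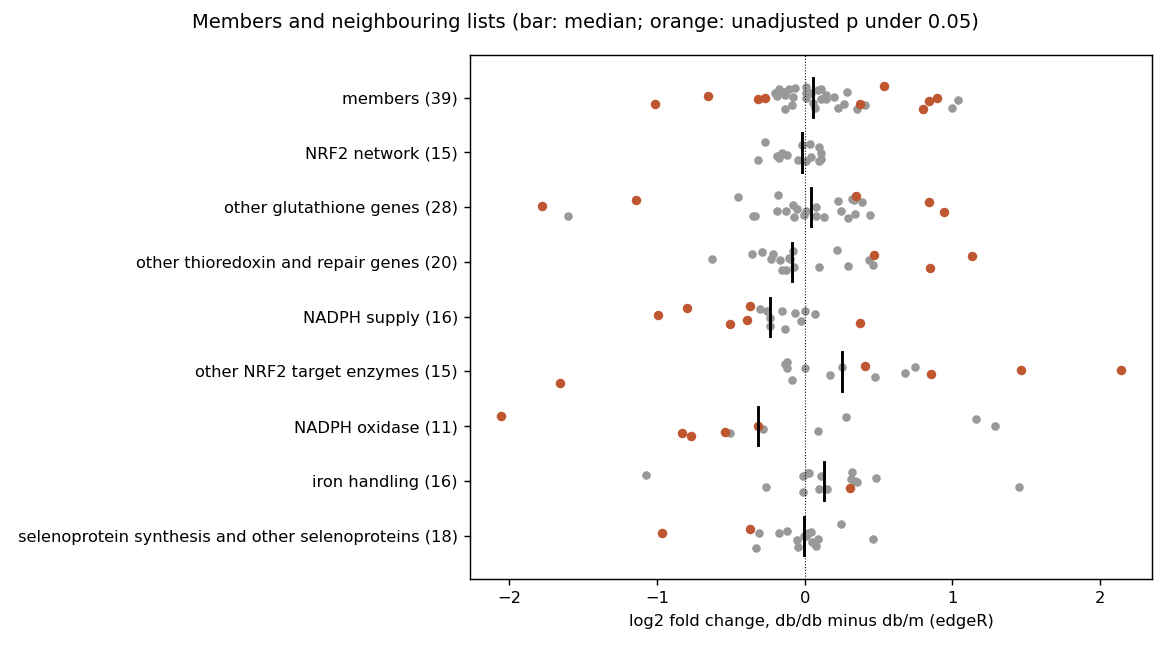
Log2 fold change of db/db minus db/m (horizontal axis) for each gene of the member list and of 8 neighbouring lists, the number of genes in parentheses, with a black bar at the median and orange points at an unadjusted p under 0.05. The NRF2 network lies close to 0 with no orange point, and the orange points of NADPH oxidase lie on the lower side.

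Many of the extremes lay in a few libraries. Db/db replicate 3 was the highest of the 8 libraries in 16 of the 39 members, among them Prdx2, Glrx5, Gstm5, Mgst3, Nqo1 and Txnrd2, and db/m replicate 4 in 9. The lowest library was db/m replicate 3 in 11 members, both ferritin chains and Prdx6 among them, and db/db replicate 2 in 11 others. These counts were not made over all genes, so they may not be particular to the members. The summed CPM of all 39 members was 8341 to 10996 in db/m and 9458 to 11662 in db/db, so that the groups overlapped, and its lowest value was from db/m replicate 3.

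**Figure D5:**
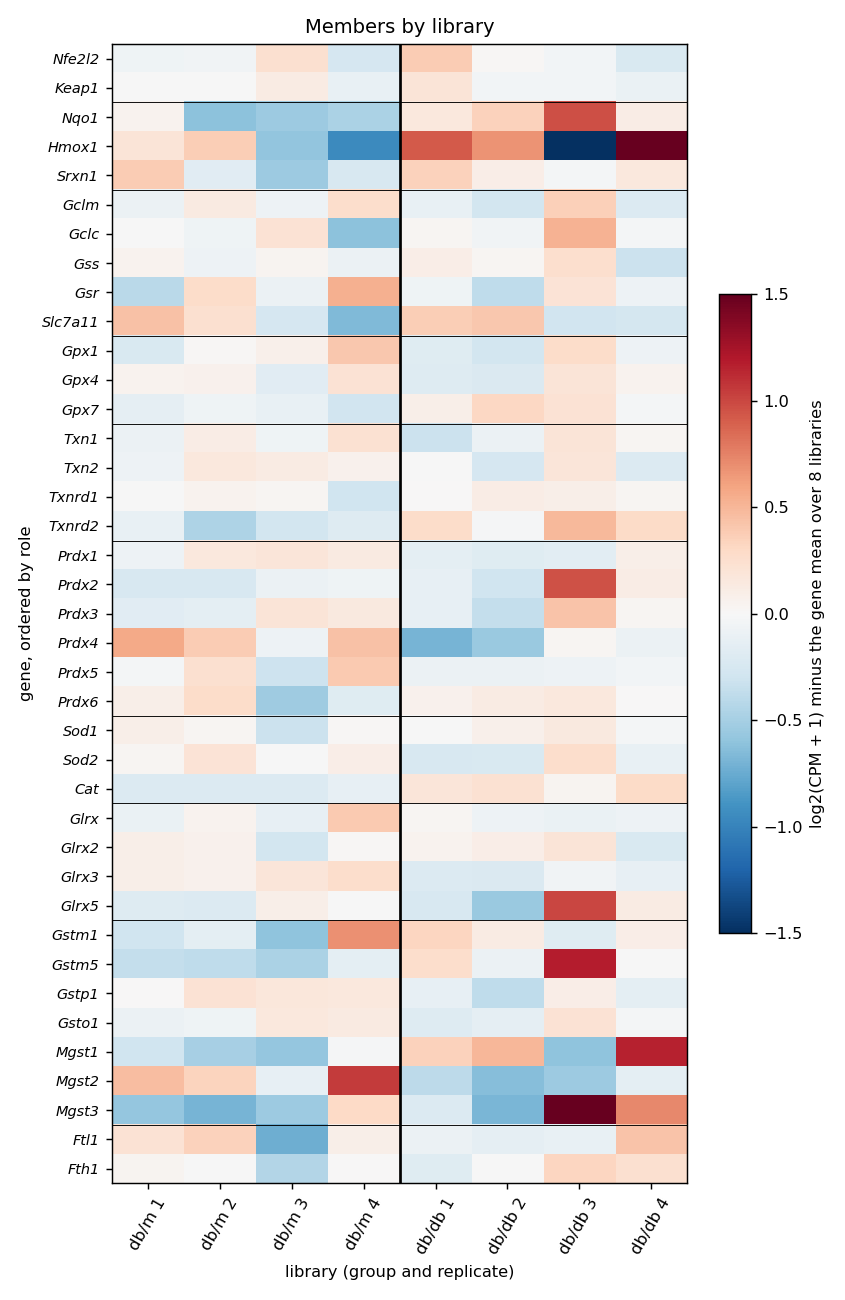
Level of each of the 39 members (rows, by role) in each of the 8 libraries (columns, db/m left of the line), as log2(CPM + 1) minus the mean of the gene over the libraries, red above and blue below it. Hmox1 has the deepest blue and a deep red in 2 db/db libraries, Mgst3, Gstm5, Glrx5, Prdx2 and Nqo1 are red in db/db replicate 3, and the row of Keap1 is pale throughout. Colours are capped at both ends of the scale.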

How the data were processed

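LSK cells were sorted by flow cytometry and libraries were made from polyA RNA by an ultralow-input method, per the labels' protocols. Per the submitters' processing notes and the file headers, the authors used mm10, STAR 2.7.10a for mapping, featureCounts (Subread 2.0.3) for counting and edgeR 3.40.2 for testing. Which annotation, strand setting and low-count filter they chose is not given in the sources used here. The deposited table holds raw counts, log2 CPM values, log2 fold changes and p-values by the authors. It also has a gene length in bases, and a second deposited table has reads per region, from which percentages of uniquely mapped reads were computed. Its read numbers on the sense and antisense strands of coding regions are similar, so reads of antisense partners cannot be told apart. Ftl1, Fth1, Txn1, Prdx1, Gpx4, Gstp1 and the Gstm genes may share reads with near-identical copies.

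The counts went into edgeR 4.0.16 (R 4.3.3) with TMM scaling, filterByExpr, which removed 0 genes, and a quasi-likelihood test between the genotypes without covariates. P-values had Benjamini-Hochberg adjustment over 13708 genes and a threshold of 0.05. SD covers the 4 libraries of a group, SE the fitted log2 fold change. There were 21 rows whose symbol was a date, blank or repeated, and they were kept. The test was checked on simulated counts, where it called 36% of 2-fold and 80.4% of 4-fold changes at this threshold. Members and lists were chosen with earlier results of these data known. All members are named. Given in every library are those with an unadjusted p under 0.05 or groups apart, the regulators, the standard NRF2 targets and the highest and lowest member, and, chosen after their values were seen, Prdx2, Glrx5 and Mgst3. From each pathway list up to 4 genes of smallest p are named. The alternatives tried were scaling by RLE or by the upper quartile, no filter, at least 1 CPM in 4 libraries, DESeq2 1.42.0, limma-voom (limma 3.58.1), the likelihood ratio test, the title prefix as a block and the omission of each library. Added after seeing the data were the omission of db/m replicates 1, 2 and 4, and of replicate 3 of both groups. Selenoprotein symbols were matched through RefSeq synonyms. One value of a gene outside the lists is not reported here.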

Additional observations from a re-analysis of the deposited data

Results flagged for a closer look

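In a group of 4 libraries, a library was picked out when its gap to the nearest other was a larger part of the whole range of its group than Dixon's critical value allows. This happened in 12 of 146 groups examined, 6 of them among the 78 groups of the members, where chance picks out about 1 in 20.

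Among the members, the ratio of gap to range was 0.95 for Cat in db/m replicate 4 (181 CPM, the others 170.7 to 171.3), in a group that was otherwise very even. It was 0.936 for Ftl1 in db/db replicate 4 (3487 CPM, the others 2354 to 2427) and 0.891 for Prdx1 in the same library (461 against 382 to 391). It was 0.892 for Mgst3 in db/m replicate 4 (25.6 against 12.4 to 13.8) and 0.887 for Gclc in db/db replicate 3 (145 against 96.9 to 102). Fth1 was low in db/m replicate 3, with 0.864 (1141 against 1532 to 1594).

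Outside the members, the ratio was 0.893 for Cybb in db/db replicate 4, 0.91 for Tigar in db/m replicate 3 and 0.881 for 2700094K13Rik in db/db replicate 3, each the highest of its group. In db/db replicate 4 the summed levels of 3 marker lists were picked out as well, B cell genes with 0.904, neutrophil genes with 0.862 and genes of eosinophils, mast cells and basophils with 0.831.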

How the results depend on the processing

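Replacing edgeR's quasi-likelihood test with DESeq2 brought 5 members past the adjusted threshold and its likelihood ratio test 2, while limma-voom, the other scalings and filters and the omission of any single library gave 0. Libraries left out one at a time gave 6 to 11 members at an unadjusted p under 0.05, 7 to 13 whose groups did not overlap, where 10.7% to 18.7% and 10.8% to 17.9% of all genes did so, and a median log2 fold change of 0.0080 to 0.10. With db/m replicates 1, 2 and 4 left out 15.3% of all genes and 4 members were under 0.05, with none of the 9 among these, and the lone control was assumed to vary like the db/db libraries. With replicate 3 of both groups left out 1 passed the adjusted threshold, Prdx4, in a fit that called 1.42% of all genes. No paired analysis was possible because each title prefix occurs in 1 genotype only and the title numbers repeat within a group. With the prefix as a correlated replicate block, 0 members passed and the within-prefix correlation was -0.04186. Of 702 values of single members under 18 alternatives, 655 kept direction and side of the threshold, 8 passed it and 39 had the other sign, and 21 members had the same sign in all 18. The fit without a filter is among the 18 and could not differ from the main fit, since the filter removed 0 genes. The sign changes were Keap1 -1.94e-05 with RLE scaling, Prdx3 -0.011 with limma-voom and Prdx3 -0.0081 with the block. Over the omitted single libraries log2 fold changes spanned -0.16 to 0.12 for Prdx3, -0.0042 to 0.13 for Sod1, -0.031 to 0.13 for Glrx2, -0.061 to 0.44 for Gstm1, -0.19 to 0.13 for Ftl1, -0.12 to 0.47 for Slc7a11, -0.060 to 0.039 for Keap1, -0.057 to 0.16 for Nfe2l2, -0.040 to 0.14 for Gss and -0.12 to 0.48 for Glrx5. With db/m replicates 1, 2 and 4 left out the reversed values were Gclm 0.044, Gclc -0.073, Gss -0.0091, Gsr 0.022, Txn1 0.038, Prdx3 -0.16, Prdx5 0.24, Gpx4 0.14, Glrx 0.070, Nfe2l2 -0.20 and Keap1 -0.12. With replicate 3 of both groups left out they were Gss -0.020, Prdx3 -0.092, Prdx6 -0.0082, Sod1 -0.029, Glrx2 -0.081, Glrx5 -0.062 and Ftl1 -0.13. The cause of these changes was not tested. With 4 libraries a group and a biological coefficient of variation of 31.33% in common, moderate differences may go uncalled. In the simulated counts 36% of 2-fold changes were called. Slc7a11 rests on 406 reads in all.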
